A study of Mus musculus with 2 samples.

Results

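The genes that make, package, take up and break down γ-aminobutyric acid (GABA), the main inhibitory transmitter of the brain, were described in the adult mouse cerebellum. The group comprised Gad1, Gad2, Slc32a1, Slc6a11, Slc6a13, Abat and Aldh5a1 matched by Ensembl identifier, and all 7 were found among 43346 quantified genes. RNA sequencing covered 2 libraries of cerebellum from C57BL/6J mice, the standard inbred laboratory strain, aged 8 weeks. Both libraries carry the label of a pool of male and female littermates and share 1 donor record, and no label says that they came from separate animals; the sex-linked genes given below differ between them as between animals of opposite sex. The libraries, numbered replicates 1 and 2, form a single group with no treatment, genotype or other contrast, so no p-value was computed. Reads were paired and strand-specific, from polyadenylated RNA longer than 200 nucleotides.

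GABA is made from glutamate by glutamate decarboxylase, an enzyme that needs pyridoxal phosphate and exists as a product of Gad1 (GAD67) and a product of Gad2 (GAD65), the second of which is concentrated at nerve terminals. Slc32a1 encodes the vesicular transporter that loads GABA and glycine into synaptic vesicles. Slc6a11 encodes GAT3, a plasma membrane transporter known mainly from astrocytes, and Slc6a13 encodes GAT2, known mainly from the leptomeninges and from liver and kidney. In mitochondria, GABA transaminase, the product of Abat, turns GABA into succinic semialdehyde, and Aldh5a1 encodes the dehydrogenase that oxidises this to succinate, which enters the citric acid cycle. In the cerebellum GABA is the transmitter of Purkinje cells, of the basket and stellate cells of the molecular layer and, with glycine, of Golgi cells.

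Replicate 1 held 79771873 estimated fragments assigned to mouse genes and replicate 2 held 80281011. Levels are in TPM, a length-corrected relative abundance computed by the authors, with mean ± SD over the libraries (n = 2). Of 64 marker genes in 8 lists, 63 reached 1 TPM in both libraries, with Pcp2, a Purkinje cell gene, at 1585 and 1349 TPM, Pvalb, found in molecular layer interneurons and Purkinje cells, at 666 and 642 TPM, and Cbln3, a granule neuron gene, at 417 and 339 TPM in replicates 1 and 2. The other lists were led by Slc1a3 among astrocyte and Bergmann glia genes, Sst among Golgi cell genes, Ly6c1 among endothelial and mural cell genes, Igf2 among meningeal fibroblast genes and Ttr among choroid plexus genes. The libraries went against their label as a pool of sexes. Xist, which is transcribed from the inactive X chromosome of females, had 93.5 TPM in replicate 1 and 0.03 TPM in replicate 2, and the Y-linked genes Ddx3y, Eif2s3y, Kdm5d and Uty had 0 fragments in replicate 1 and between 7.34 and 42.9 TPM in replicate 2. Differences between the libraries described below therefore cannot be told apart from this one. Because the tissue was measured in bulk, fewer cells of a type and less RNA per cell cannot be told apart.

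The sequences around 3 places in Gad1 are shown first, because the level of the most abundant member turns on them. Each line gives 24 bases of the GENCODE M21 transcripts on the plus strand of mm10 chromosome 2, with the 12 bases before the place in capitals and the 12 bases after it in lower case. The first pair meets at position 70562178, where Gad1-204 joins a first exon of its own to bases that lie inside the first exon of Gad1-201, both in the 5′ untranslated part. The second pair meets at position 70567186, where Gad1-206 joins a first exon of its own to the third exon of Gad1-201. The third pair follows exon 6, with the exon 7 that starts at position 70585834 or with the embryonic exon that starts at position 70584420.
Gad1-204, exon 1 to exon 2: CACTCACCAAAGgctctcccgtgc
Gad1-201, inside exon 1: TCCCTTCTTCAGgctctcccgtgc
Gad1-206, exon 1 to exon 2: ACCTGGAGAAAGcgtatgatactt
Gad1-201, exon 2 to exon 3: TGCGCCCTACAAcgtatgatactt
Gad1-201, exon 6 to exon 7: CAATACCAATATgttcacatatga
Gad1-203, exon 6 to embryonic exon: CAATACCAATATgccatcagacat

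Gad1 was the most abundant member and Slc6a13 the least abundant. Gad1 (ENSMUSG00000070880.6, mm10 chromosome 2, positions 70553072 to 70602014, plus strand) stood at 369 TPM in replicate 1 and 303 TPM in replicate 2, or 336 ± 46.9 TPM, which placed it at rank 278 of 21474 protein-coding genes. Gad2 (ENSMUSG00000026787.3, chromosome 2, positions 22622205 to 22693874, plus strand) stood at 32.0 and 30.3 TPM in replicates 1 and 2, or 31.1 ± 1.21 TPM. Transcripts of the GAD67 gene therefore outnumbered those of the GAD65 gene by 11.5 to 1 in replicate 1 and by 9.997 to 1 in replicate 2 on the TPM scale (10.8 ± 1.09). The size of this ratio depended on the transcript model, as described below.

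Among the transporters, Slc32a1 was the most abundant and Slc6a13 the least. The vesicular transporter gene Slc32a1 (ENSMUSG00000037771.11, chromosome 2, positions 158610767 to 158615748, plus strand) stood at 143 TPM in replicate 1 and 138 TPM in replicate 2. The GAT3 gene Slc6a11 (ENSMUSG00000030307.7, chromosome 6, positions 114131241 to 114249952, plus strand) stood at 104 TPM in replicate 1 and 137 TPM in replicate 2, and the GAT2 gene Slc6a13 (ENSMUSG00000030108.10, chromosome 6, positions 121300227 to 121337733, plus strand) at 7.69 and 3.91 TPM. Slc6a11 was thus 13.5 times as abundant as Slc6a13 in replicate 1 and 35.2 times in replicate 2. The libraries agreed that GAT3 messenger RNA exceeded that of GAT2, but not on by how much.

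Of the genes of breakdown, the transaminase gene exceeded the dehydrogenase gene. Abat (ENSMUSG00000057880.8, chromosome 16, positions 8513429 to 8621568, plus strand) stood at 165 and 157 TPM in replicates 1 and 2, and Aldh5a1 (ENSMUSG00000035936.6, chromosome 13, positions 24907579 to 24937661, minus strand) at 27.9 and 27.6 TPM. The ratio of Abat to Aldh5a1 was 5.92 in replicate 1 and 5.69 in replicate 2 (5.81 ± 0.162). This was the most stable of the 3 ratios formed between members of one step or kind.

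**Figure D1:**
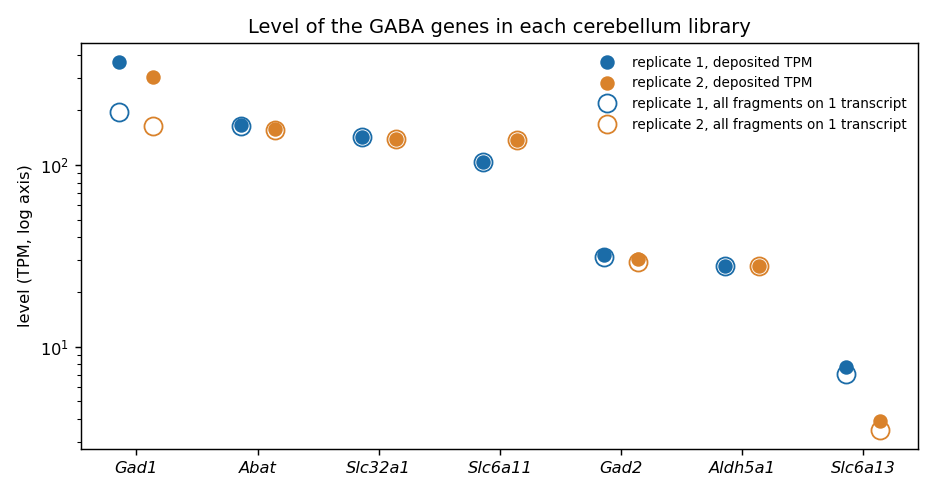
Level in TPM on a log axis for the 7 GABA genes, ordered by mean; filled points are the deposited gene values of replicate 1 (blue) and replicate 2 (orange), and open circles are the values when all fragments of a gene are put on its transcript with most fragments. The open circles of Gad1 fall to 195 and 164 TPM, against filled points at 369 and 303 TPM, while those of the other genes sit on or close to the filled points.

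In order of mean TPM the members ran Gad1, Abat, Slc32a1, Slc6a11, Gad2, Aldh5a1 and Slc6a13. Slc32a1 and Slc6a11, at 141 ± 3.60 and 121 ± 23.5 TPM, did not differ beyond their spread, and in replicate 2 they were almost level at 138 and 137 TPM. Abat lay above Slc32a1 in both libraries, by factors of 1.15 and 1.14, and Gad2 lay above Aldh5a1 by factors of 1.15 and 1.10. All 7 members exceeded the median of 4.77 TPM over all 21474 protein-coding genes in their mean, and 6 exceeded the median of 18.4 TPM over the 13074 protein-coding genes that reached 1 TPM in both libraries. Slc6a13 was the exception. In the RPKM of the mm9 tables the order was the same but for Slc32a1, at 22.3 in R1 and 23.2 in R2, which lay above Abat, at 21.002 and 21.372. Most of that Slc32a1 RPKM, 74.6% in R1 and 72.5% in R2, was given to a second transcript described below.

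The deposited TPM of Gad1 rested in large part on transcripts with an own intron that no junction read crossed. The annotation of the gene holds 8 transcripts. Gad1-204, a model of 398 nucleotides that is annotated as protein-coding, held 45.5% of the TPM of the gene in replicate 1 and 42.7% in replicate 2, from 1794 and 1427 estimated fragments. Gad1-201, the model of 3355 nucleotides that encodes the full enzyme, held 41.2% and 30.8%, from 25412 and 16471 fragments. Gad1-206, a processed transcript of 2996 nucleotides with no annotated reading frame, held 7.73% in replicate 1 and 21.7% in replicate 2, from 4223 and 10283 fragments. The short Gad1-204 thus took more TPM than the full-length Gad1-201 in both libraries, from far fewer fragments. This is because TPM divides by an effective length, which was 202 and 197 for Gad1-204 and 3159 and 3154 for Gad1-201.

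The junction table, which was made on the mm9 assembly with Ensembl 65 annotation and numbers its replicates R1 and R2 without naming a library, gave direct counts for the introns of these models. The only intron that belongs to Gad1-204 alone (mm9 chromosome 2, positions 70391181 to 70400234) held 0 reads, against 3379 reads over the neighbouring first intron of Gad1-201 (2073 in R1 and 1306 in R2). A count of 0 allows at most 0.0888% of that neighbour. The only intron of Gad1-206 alone (positions 70404511 to 70405242) also held 0 reads. The second intron of Gad1-201, which ends at the same acceptor, held 2104 reads, and the same floor is 0.143% of it. The introns of Gad1-204 and Gad1-206 alone were thus both without a read. These are the junctions printed above for Gad1-204 and Gad1-206. The mm9 transcript table nevertheless gave Gad1-204 43.1% and 35.5% of the RPKM of the gene in R1 and R2, Gad1-206 38.8% and 48.0%, and Gad1-201 14.9% and 14.6%. All 16 introns of Gad1-201 were read, by 1142 to 4536 reads each.

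Coverage contigs of the same mm9 set were examined at the first exons of these models. No contig on the plus strand touched any of the 52 bases of the first exon of Gad1-204 (positions 70391129 to 70391180), while a contig on the minus strand, the strand of the antisense gene Gad1os, covered all 52 with a signal of 0.154. The 291 bases of the first exon of Gad1-201 lay wholly inside a plus-strand contig with a signal of 11.3. The 77 bases of the first exon of Gad1-206 lay inside a plus-strand contig with a signal of 1.19, which ran from position 70402815 to 70406140 and so also held the third exon of Gad1-201. Apart from its first exon, Gad1-204 repeats Gad1-201: the longest run of identical bases was 348 of its 398, and that of Gad1-206 was 2919 of its 2996.

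**Figure D2:**
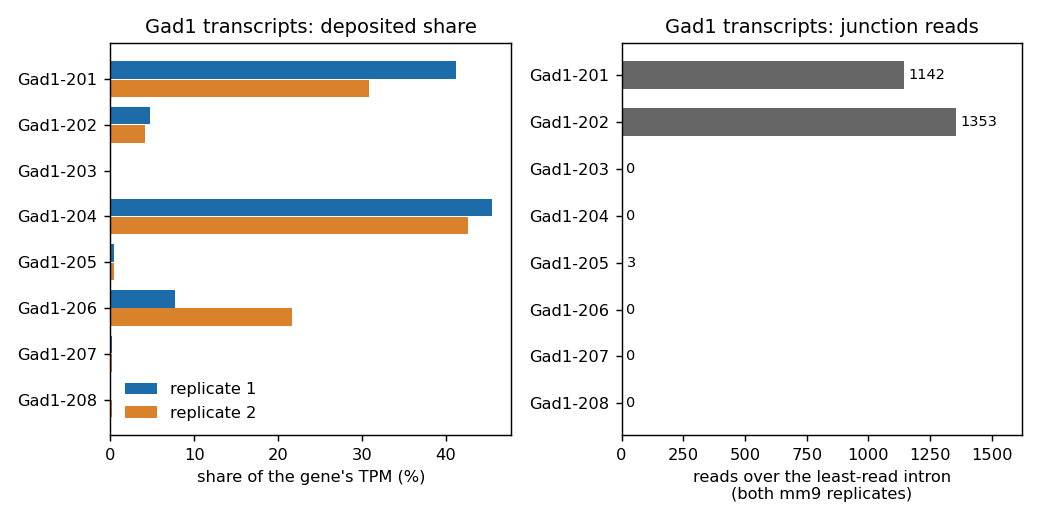
Left, the deposited share of Gad1 TPM in percent for each of its 8 transcripts, in replicate 1 (blue) and replicate 2 (orange); right, the reads over the least-read intron of each transcript, both mm9 replicates together. Gad1-204 and Gad1-206 have shares of 45.5% and 7.73% in replicate 1 and an intron with 0 reads, while each intron of Gad1-201 has at least 1142.

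When all Gad1 fragments were put over the effective length of Gad1-201, an alternative chosen after the data were seen, the level of Gad1 was 195 TPM in replicate 1 and 164 TPM in replicate 2 (180 ± 21.4). The deposited values were 1.89 and 1.84 times as high. On this scale the ratio of Gad1 to Gad2 was 6.29 and 5.63 in replicates 1 and 2. Within each library Gad1 still lay above Abat, whose values were 164 and 156 TPM in replicates 1 and 2. The mean of Gad1 no longer exceeded that of Abat, at 160 ± 5.61 TPM, beyond the spread. Junction reads per intron, which need no length, gave a median of 1212.5 reads in R1 and 926 in R2 over the 16 introns of Gad1-201, and of 242 and 197 reads over the 15 introns of Gad2-201, a ratio of 5.01 and 4.70. Abat had medians of 1091 and 971 over its 15 introns, so Gad1 was above Abat in R1 and below it in R2. The single intron of Slc32a1 held 1416 and 1364 reads, more than either median.

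Large shares without a read over an own intron were not confined to Gad1. Over the whole tables, 7002 transcripts had at least 20% of the TPM of their gene in both libraries, a gene level of at least 5 TPM, the same length in both annotations and at least 1 intron of their own, genes with a single transcript included, and 530 of them (7.57%) had no read over any such intron. Within the pathway, Slc32a1 had the same feature in the mm9 transcript table, where a second transcript (ENSMUST00000109483) held 74.6% and 72.5% of the RPKM of the gene in R1 and R2. The intron of its own, at mm9 chromosome 2 positions 158440699 to 158441085, held 0 reads against 2780 over the intron it shares with Slc32a1-201. In the mm10 tables Slc32a1, Slc6a11 and Aldh5a1 have 1 transcript each.

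The other members were carried by their full-length transcripts in mm10. Gad2-201 held 96.6% of Gad2 TPM in replicate 1 and 96.1% in replicate 2, and Abat-201 held 98.9% and 98.6% of Abat TPM. Slc6a13-201 held 89.9% in replicate 1 and 83.0% in replicate 2, with 9.01% and 10.1% in the retained-intron transcript Slc6a13-203 and 1.09% and 6.93% in the retained-intron transcript Slc6a13-202. These minor shares rest on 16.2 and 9.64 fragments for Slc6a13-203 and 4.68 and 16.0 fragments for Slc6a13-202. The mm9 table placed Slc6a13 and Abat otherwise. It gave Slc6a13-202 55.0% of the RPKM of its gene in R1 and 10.4% in R2. Abat-203 held 26.7% and 20.7% there, with 8 reads over the intron of its own, and Abat-201 held 72.5% and 78.4%.

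The embryonic exon of Gad1 was almost absent from the junction reads. This exon of 80 bases (mm10 chromosome 2, positions 70584420 to 70584499), known from mouse embryonic brain, brings a stop codon into the reading frame. Read from the annotated start codon, the frame ends after 223 codons with the exon, against 593 codons in Gad1-201. Its bases up to the stop, at positions 70584420 to 70584456 with the stop codon in capitals, show where the frame ends.
Gad1 embryonic exon, coding part: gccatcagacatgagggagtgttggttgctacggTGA
Over the mm9 junctions, 3 reads joined exon 6 to this exon (2 in R1 and 1 in R2), against 2467 that joined exon 6 directly to exon 7 (1397 in R1 and 1070 in R2). Inclusion at the upstream junction was therefore 0.121%, with a 95% Wilson interval from 0.0413% to 0.357% that covers counting error only. Downstream, no read left the exon of 80 bases and 2 reads, both in R2, left a longer form of 86 bases that is also known. With fewer than 10 reads, the exon was described for its known role and not for its count. Gad1-203, which holds the exon, is annotated as subject to nonsense-mediated decay. Reads count the RNA that was present, so how often splicing skipped the exon was not measured.

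By share of reads, splicing of the members otherwise largely followed the annotation. All 83 introns of the 7 leading transcripts were read, down to 24 reads for the third intron of Slc6a13. Unannotated junctions took between 0.566% of the reads in Gad1, with a 95% Wilson interval from 0.495% to 0.646%, and 1.98% in Aldh5a1, from 1.58% to 2.49%. With only junctions of at least 5 reads the share was 0.231% in Gad1, 0.0917% in Gad2, 0.212% in Slc6a11, 0.106% in Abat and 1.48% in Aldh5a1, and it was 0% in Slc32a1 and Slc6a13, at 1.84% and 1.92% without that limit. No unannotated junction reached 5% of the strongest junction of its gene. The nearest was in Aldh5a1, where a junction over 6653 bases on mm9 chromosome 13, positions 25022467 to 25029119, had 17 reads in R1 and 9 in R2, or 3.51% of the strongest. It shares its end at position 25029119 with the first intron of Aldh5a1-201, which held only 142 reads in R1 and 110 in R2. Beside that intron, its share was thus larger than 3.51%. No junction that skipped an internal exon of a leading transcript held 10 reads or more.

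Sense coverage ran past the annotated 3′ end by 570 bases for Abat, 601 for Slc6a11 and 1694 for Aldh5a1 in mm9 contigs, and by 15 for Gad1 and Slc32a1. Contigs on the opposite strand held 3.49% of the aligned bases within the bounds of Aldh5a1, where 4932702P03Rik and 9330162012Rik lie on that strand, and between 0.00914% for Slc6a11 and 0.252% for Gad1 elsewhere. In mm10 Gad1os itself was given 19 and 9 fragments in replicates 1 and 2.

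The 2 libraries were set against each other as log2 CPM after TMM scaling, replicate 1 minus replicate 2, for the 15543 genes with at least 100 counts. Of these, 99 (0.637%) were at least 2-fold apart in either direction, and 0 of the 7 members were. The sizes of the log2 ratios had a median of 0.09 over all tested genes and a 95th percentile of 0.46. With their signs kept, the log2 ratios had a median of -0.0015, so about as many of these genes lay above 0 as below. Intervals in brackets are exact 95% binomial intervals and cover counting error only.

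Slc6a13 came closest to a 2-fold difference. It had 766 fragments in replicate 1 and 395 in replicate 2, a log2 ratio of 0.96 (0.79 to 1.15), and 99.3% of tested genes lay closer together. Over the mm9 junctions, all 14 introns of Slc6a13-201 had more reads in R1 than in R2, 767 against 359 in sum. These counts were not scaled for depth, and R1 need not be replicate 1. Beside Slc6a13, all 11 choroid plexus genes were higher in replicate 1 and 6 of them at least 2-fold. The 11 genes summed to 2454 TPM in replicate 1 and 982 TPM in replicate 2, most of it from Ttr. Those 6 were Ttr at 2086 and 763 TPM, Kcnj13 at 11.9 and 3.51 TPM, Folr1 at 12.2 and 5.08 TPM, Kl at 5.77 and 2.18 TPM, Kcne2 at 6.57 and 2.36 TPM and Aqp1 at 2.85 and 1.25 TPM. All 9 meningeal fibroblast genes were also higher in replicate 1, summing to 107.5 and 72.1 TPM, of which Igf2 gave 65.45 and 42.54. Aldh1a2 (4.62 and 2.09 TPM) and Ogn (2.97 and 1.39 TPM) were at least 2-fold higher there. None of the genes of either list was at 0 in both libraries, and their part in the Slc6a13 difference was not tested. Slc6a12, the betaine and GABA transporter gene, had 4.93 TPM in replicate 1 and 3.55 TPM in replicate 2. The longest run of bases shared by Slc6a12-201 and Slc6a13-201 was 53, shorter than a read.

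Slc6a11 was lower in replicate 1. It had 21331 fragments in replicate 1 and 29753 in replicate 2, a log2 ratio of -0.47 (-0.49 to -0.44), and 95.1% of tested genes lay closer together. Each of the 13 introns of Slc6a11-201 had fewer mm9 junction reads in R1 than in R2, at ratios from 0.701 to 0.925. Here too the counts were not scaled for depth, and R1 need not be replicate 1. The astrocyte and Bergmann glia genes were not lower as a list in replicate 1: 7 of 10 were higher there, and they summed to 1169 TPM in replicate 1 and 1042 TPM in replicate 2. The list was mixed, with log2 ratios from -0.21 to 0.58 and a median of 0.08, so some of its genes went the same way as Slc6a11. The 5 Golgi cell genes summed to 175 and 203 TPM, with a median log2 ratio of -0.08 and 1 of 5 higher in replicate 1. Their log2 ratios ran from -0.55 for the glycine transporter gene Slc6a5, with 32.3 and 45.1 TPM, to 0.20 for the glutamate receptor gene Grm2, with 15.3 and 12.7 TPM, and both genes were picked out after their values were seen. The part of these cell types in the Slc6a11 difference was not tested.

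The neuronal genes of synthesis and packaging differed less. Gad1 was higher in replicate 1 by 0.18 on the log2 scale (0.15 to 0.20), with 32555 and 29046 fragments in replicates 1 and 2, and 73.3% of tested genes lay closer together. Gad2, with 9097 and 9067 fragments, and Slc32a1, with 19695 and 20066, had log2 ratios of 0.02 (-0.03 to 0.06) and -0.02 (-0.04 to 0.01). Abat had 38502 and 38732 fragments and a log2 ratio of 0.00 (-0.02 to 0.02), and Aldh5a1 had 8043 and 8429 and -0.06 (-0.10 to -0.01). Beside Gad1, 7 of 8 Purkinje genes, 5 of 7 molecular layer interneuron genes and 1 of 5 Golgi cell genes were higher in replicate 1, with list medians of 0.19, 0.18 and -0.08. Granule neurons, which are not GABAergic, had 6 of 6 genes higher and a median of 0.23. The part of these cell types in the Gad1 difference was not tested.

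**Figure D3:**
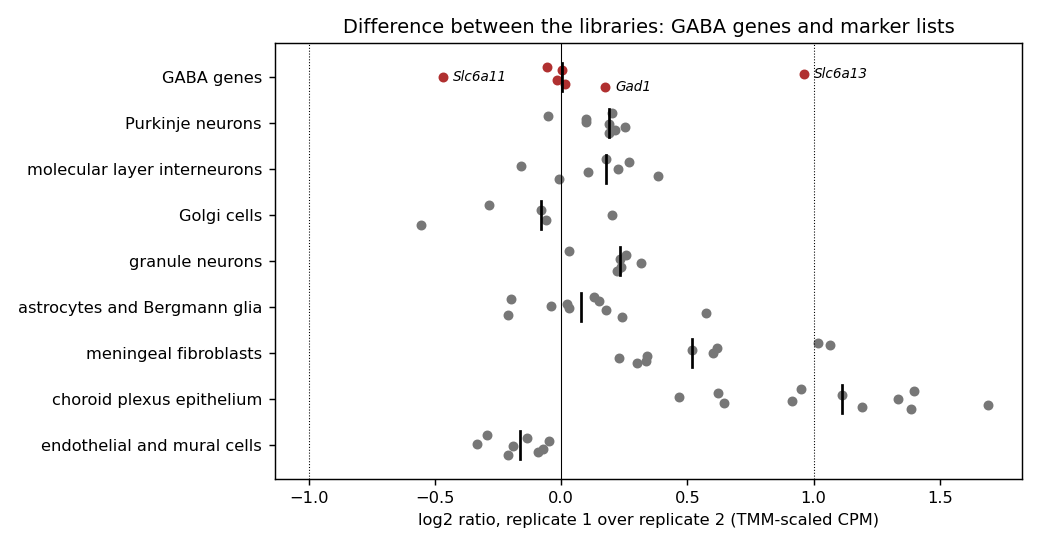
Log2 ratio of replicate 1 over replicate 2 after TMM scaling for the 7 GABA genes (red) and for 8 lists of cell type markers (grey); each point is a gene, black bars are list medians and dotted lines mark a 2-fold difference. Slc6a13 lies at 0.96, between the list medians of 0.52 for meningeal fibroblasts and 1.11 for choroid plexus. Slc6a11 lies at -0.47, and the other 5 GABA genes lie between -0.06 and 0.18.

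The ratio between replicates was not constant along the members. In the mm9 junction table the first 8 introns of Gad1-201 had 9745 reads in R1 and 6633 in R2, a ratio of 1.47, and the last 8 had 11525 and 10009, a ratio of 1.15. The first intron stood at 1.59 and the last at 1.07. The difference in log2 ratio between the first and the last introns was 0.35 for Gad1, 0.25 for Aldh5a1, 0.24 for Slc6a13, 0.18 for Abat, 0.16 for Gad2 and 0.01 for Slc6a11. Over 4604 genes with at least 6 introns of at least 20 reads each, in the transcript with most introns, the median was 0.11 and 74.5% of the values were above 0. Gad1 lay above 92.3% of these genes and Slc6a11 above 28.2%. A summary of Gad1 from its last introns would thus give a lower ratio of R1 to R2 than one from its first introns. The counts were not scaled for depth, so how far apart the replicates lay at either end was not measured.

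**Figure D4:**
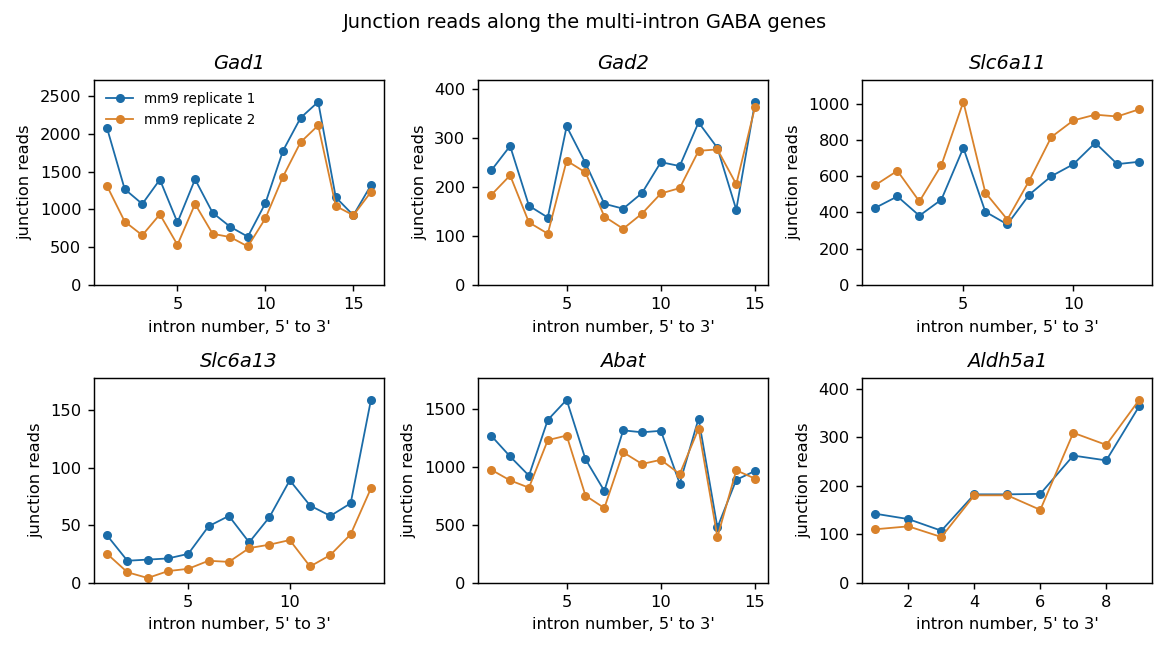
Junction reads over each intron, numbered from the 5′ to the 3′ end of the leading transcript, for the 6 GABA genes with more than 1 intron; blue is mm9 replicate 1 and orange is mm9 replicate 2. In Gad1 the curves lie apart over the first intron, at 2073 and 1306 reads, and nearly meet at the last, at 1318 and 1229, while in Slc6a11 replicate 1 stays below replicate 2 throughout.

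**Figure D5:**
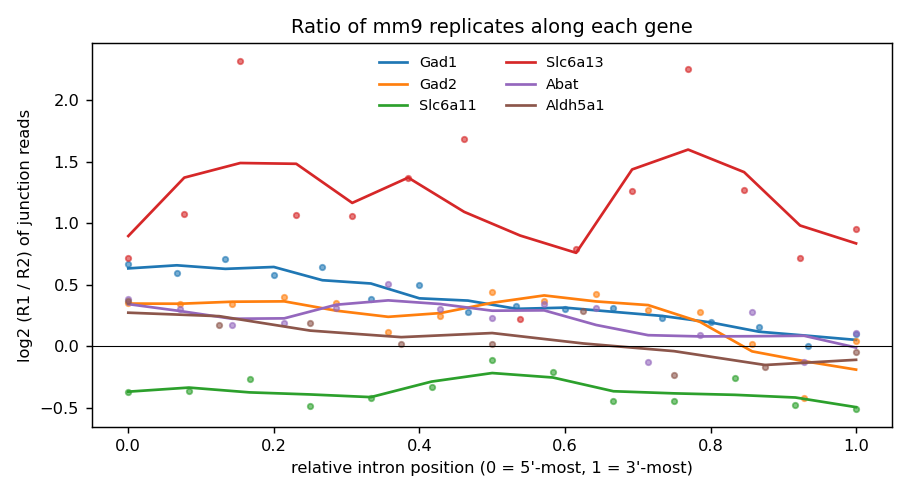
Log2 ratio of R1 over R2 junction reads against relative intron position for the same 6 genes; points are single introns and lines are running means over 3 introns. Gad1 declines along the transcript, Slc6a11 stays below 0, and Slc6a13, which has the fewest reads, scatters above 0.

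The enzymes and carriers around the pathway were described from 6 lists of 32 genes, of which 31 were measured and Pdxp was not analysed here. None of the 30 that reached 100 counts was at least 2-fold apart between the libraries, beside 0.637% of all tested genes. Of 10 genes for the supply of glutamate and glutamine, all reached 1 TPM in both libraries, with a median of 112 TPM, beside 121 TPM for the 7 GABA genes. Glul, the glutamine synthetase of glia, was the highest at 878 and 888 TPM in replicates 1 and 2, and the glutamine transporter gene Slc38a5 was the lowest at 5.96 and 6.58 TPM. Pyridoxal phosphate, the cofactor of both decarboxylases and of the transaminase, is formed with the help of pyridoxal kinase, whose gene Pdxk stood at 54.5 and 51.2 TPM in replicates 1 and 2.

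For the part of the citric acid cycle around succinate, 8 genes, not all of them downstream of Aldh5a1, had a median of 143 TPM. They ran from Suclg2, a subunit of the GTP-forming succinyl-CoA ligase, at 12.2 and 11.8 TPM, to Sdha, the flavoprotein subunit of succinate dehydrogenase, at 271 and 266 TPM in replicates 1 and 2. Aldh5a1 itself, at 27.8 ± 0.170 TPM, was below the median of that list. Genes for other routes to GABA or from succinic semialdehyde had a median of 15.4 TPM over 5 genes. Aldh1a1, a cytosolic aldehyde dehydrogenase, was the highest of them at 117 and 126 TPM, and Adhfe1, a hydroxyacid transhydrogenase, the lowest at 7.28 and 7.75 TPM.

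Among related carriers, the creatine transporter gene Slc6a8 stood at 109 and 104 TPM in replicates 1 and 2, close to Slc6a11, and Slc6a12 was the lowest of that list of 3. Zdhhc17, which encodes a palmitoyltransferase that acts on GAD65, stood at 64.6 and 57.9 TPM, above Gad2 in both libraries. Gadl1, a relative of the decarboxylases, had 0.18 and 0.20 TPM and did not reach 100 counts.

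The paralogous members shared short runs of sequence. The coding sequences of Gad1-201 and Gad2-201 were identical at 67.4% of 1737 aligned bases, and the longest run of identical bases in the transcripts was 17. For Slc6a11-201 and Slc6a13-201 identity was 71.7% of 1803 aligned bases, with a longest run of 19. Both runs are shorter than a read.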

How the data were processed

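RNA sequencing of 2 libraries of adult cerebellum was used as deposited. Per the file headers and the index, the authors quantified each library on mm10 with GENCODE M4 and deposited expected counts (estimated fragments), TPM and FPKM, in whose denominators spike-ins count, and the percent of each gene's TPM held by each transcript. They also deposited interval bounds (unit called score here), transcript lengths and effective lengths. The separate mm9 tables deposited by the authors give RPKM1 and RPKM2 per Ensembl 65 gene, transcript and exon, junction read counts with an irreproducibility value, a fraction, and contigs with a coverage signal and aligned bases. Their replicate numbers name no library. No aligner or program version is given in the sources used here. The deposited RPKM of all 351001 exons equalled the sum over their transcripts (within 0.01 plus 0.5%), so exon RPKM is no separate measure of coverage and was not reported.

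Expected counts were rounded, and log2 CPM (prior count 2, TMM scaling) was computed in edgeR 4.0.16 under R 4.3.3, without spike-in, phiX and tRNA entries, for genes with at least 100 counts. The step was tested on simulated counts. Junctions were assigned by mm9 bounds and strand, and called annotated if they join consecutive exons of an Ensembl 65 transcript. A count of 0 was set against a floor of 3 counts. Sequences and names came from GENCODE M21, on the same assembly as mm10, and 42462 of 43346 genes matched. Coordinates of mm9 and mm10 were never combined. Members and lists were chosen with earlier results of these data known. The named genes are all members with transcripts at 5% or more, the highest and lowest gene of each pathway list, the highest of each marker list and any list gene at least 2-fold apart. Slc6a5, Grm2 and the sex-linked genes fall outside this rule and were added after their values were seen. A gene that this rule names is not reported here, but it stays in the counts. Alternatives covered units, scaling, filters, transcript models and leaving out each library.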

Additional observations from a re-analysis of the deposited data

How the results depend on the processing

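The ratio of Gad1 to Gad2, 10.8 in TPM, was 3.39 from CPM without length correction, 7.96 from mm9 RPKM, 5.96 with 1 transcript per gene and 4.86 from median junction reads per intron; the last pair was chosen after the data were seen. The ratio of Slc6a11 to Slc6a13, 24.3 in TPM, was 51.6 without length correction, and that of Abat to Aldh5a1, 5.81 in TPM, was 4.69 without length correction and 6.06 from mm9 RPKM. Values without length correction differ by construction, since longer transcripts give more fragments; the cause of the difference from mm9 RPKM was not tested. With 1 library left out, these ratios ranged from 9.997 to 11.5, from 13.5 to 35.2 and from 5.69 to 5.92. Genes that differed 2-fold or more between the libraries, 99 of those tested, numbered 37 from the ratio of TPM + 1, 635 with at least 10 counts and 1632 with no filter on counts, and still 99 with DESeq2 size factors and with total gene counts. The looser filters add genes with few counts, and adding 1 to TPM shrinks the ratios of low genes. Members at least 2-fold apart stayed at 0 under DESeq2 size factors, total gene counts and TPM + 1, while Slc6a13 reached a log2 ratio of 1.02 under spike-in totals, against 0.96. Spike-in totals moved the median log2 ratio of all tested genes by 0.06 and TPM + 1 by 0.06. Limiting junctions to an irreproducibility of at most 0.1 put the unannotated share at 0.205% in Gad1, 0% in Gad2, Slc32a1 and Slc6a13, 0.212% in Slc6a11, 0.0645% in Abat and 1.48% in Aldh5a1. No paired analysis was possible because there is 1 group. The precision of Slc6a13 is limited by its 766 and 395 fragments, and with 2 libraries no difference between them can be given a test.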
